A study of Mus musculus with 44 samples.

Results

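The 10 genes Utp14b, Acsl3, Serpine2, Asic4, Resp18, Wnt10a, Cdk5r2, Fzd5, Fzd7 and Aox4 lie on mouse chromosome 1 between 58 and 80 Mb, more than 50 Mb from Kdm5b, and were read out in RNA of the dorsal hippocampus of WT and Kdm5b mutant mice before and after fear conditioning. They are 10 of 27179 gene identifiers counted and 10 of the 154 tested genes whose start lies in that window, where 189 counted identifiers have a RefSeq start. They were selected by symbol with their levels in the 2 genotypes in these libraries already known, so each genotype difference below is a description. Where counts of the 10 genes with an adjusted p under 0.05 between genotypes are given, they stand beside the share of all genes and nothing is read from them. Responses to training within 1 genotype and the difference between the sexes are other contrasts and were tested, but the responses use the same libraries as the genotype differences and are not independent of the selection. All 10 genes passed the filter on low counts in each comparison.

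KDM5B is a histone demethylase that removes methyl groups from lysine 4 of histone H3, a mark found at active promoters. Wnt10a encodes a secreted Wnt ligand, and Fzd5 and Fzd7 encode Frizzled receptors that bind Wnt proteins at the cell surface and pass the signal to beta-catenin or to other branches of the pathway, which in the hippocampus takes part in neurogenesis and synapse formation. The other genes serve unrelated roles, among them ribosome assembly, secretory granules, ion channels, lipid activation and control of proteases, and are set beside the Wnt genes here by their place on the chromosome. Genes on 1 chromosome are inherited together more often the closer they lie. In offspring of a cross between inbred strains the alleles around a mutated gene therefore tend to follow that gene, and less so with distance.

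Poly(A)-selected RNA was sequenced from 36 libraries, with 6 libraries for each of 2 genotypes at 3 times. WT mice carried no mutant allele. Mutants, labelled Kdm5bDARID/DARID, were homozygous for the deltaARID allele, which deletes the ARID domain and truncates the JmjN domain of KDM5B in every cell of the animal and leaves a shortened protein. Baseline mice (0 h) stayed untrained in the home cage, and the others were killed 1 h or 3 h after contextual fear conditioning, a training session in which foot shocks were paired with a chamber. All mice, the controls included, were young adult F2 offspring of a cross of C57BL/6J males that carried the allele with 129S2/Sv females. The mutant Kdm5b allele therefore came from the C57BL/6J side. Effects of strain alleles inherited with it cannot be told apart from those of the Kdm5b genotype in this design. How often the alleles of the distant genes described here were inherited with it was not measured. Each group holds 3 libraries labelled male and 3 labelled female, and the libraries are single animals, so that p-values measure the spread between mice.

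Library totals ran from 40274435 to 107000233 counts, with group medians between 61390777 and 81589026. Levels are given as CPM, counts scaled to library size with TMM factors. The whole-gene level of Kdm5b, mean ± SD over 18 libraries, was 88.7 ± 4.14 CPM for WT and 83.8 ± 4.83 CPM for mutants. The deletion takes only part of the transcript, so a gene-level count is a weak check of the genotype labels. WT 1 h male 1 had the lowest Kdm5b level of the 18 WT libraries, 79.6 CPM, and mutant 3 h female 2 the highest of the 18 mutant libraries, 93.6 CPM. In the same 2 libraries the sex label differed from the counts. WT 1 h male 1 held 0 counts on Y-linked genes and 51186 on Xist, and mutant 3 h female 2 held 10239 on Y-linked genes and 36 on Xist. These 2 libraries also lay within the range of the other genotype for several of the 10 genes. The library labelled WT 1 h male 1 had 16.8 CPM of Asic4, where the other 17 WT libraries had 2.41 to 7.12 CPM. The library labelled mutant 3 h female 2 had 3.74 CPM of Asic4, where the other 17 mutant libraries had 5.44 to 17.3 CPM. Both were kept under their labels, and values without them are given beside the results they move most. Markers of hippocampal and adjacent cell classes were all detected, 63 of 63 genes in 12 lists, with none at 0 in all libraries. The libraries are bulk tissue, so fewer cells of a type and less RNA per cell cannot be told apart.

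The 10 genes span 21.6 Mb of GRCm38 and are not evenly spread. Aox4 (gene 71872, chr1:58210397-58268600, plus strand) lies nearest the centromere, followed by the single-exon gene Fzd7 (gene 14369, chr1:59482147-59486955, plus) and, 5.25 Mb further on, by Fzd5 (gene 14367, chr1:64730558-64737750, minus). After a gap of 10.1 Mb come 4 genes within 0.658 Mb. These are Wnt10a (gene 22409, chr1:74792019-74804176, plus), the single-exon gene Cdk5r2 (gene 12570, chr1:74855029-74857732, plus), Resp18 (gene 19711, chr1:75272197-75278415, minus) and Asic4 (gene 241118, chr1:75450510-75474340, plus). Utp14b (gene 195434, chr1:78657825-78667601, plus) and Acsl3 (gene 74205, chr1:78657825-78707743, plus) start at the same base in the annotation, and Serpine2 (gene 20720, chr1:79794317-79858665, minus) lies 1.14 Mb beyond them. Kdm5b (gene 75605) starts at 134560178, between 54.7 and 76.3 Mb from the 10 genes.

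Several of the genes share exon bases with another annotated gene. Utp14b and Acsl3 share 244 exon bases on the same strand, 3.18% of those of Utp14b and 5.60% of those of Acsl3. On the opposite strand, Gm37264 covers 493 of the 2727 exon bases of Asic4, and Gm38058 covers 1233 of the 6915 of Fzd5. Gm15759 covers 5.61% of the exon bases of Aox4 and Gm28902 covers 3.88% of those of Resp18. The strand setting of the counting is not given in the sources used here, so reads from these pairs cannot be told apart there. Utp14b is in addition a retrotransposed copy of the X-linked gene Utp14a, and reads that match both copies may have been dropped or misassigned.

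RefSeq holds promoter windows, from 250 bases before to 50 after the annotated start in GRCm38.p6, for 8 of the 10 genes. The 4 shown are those of the pair of genes that share a locus but not a genotype difference, Utp14b (chr1:78658190-78658489, plus strand) and Acsl3 (chr1:78657575-78657874, plus), and those of Resp18 (chr1:75278366-75278665, minus) and Fzd5 (chr1:64737701-64738000, minus), which were higher in mutants and stand for a CpG-poor and a CpG-rich window. The window of Utp14b is set on a start downstream of that of Acsl3. The RefSeq gene positions, in contrast, let both genes begin at the same base. Sequences run 5′ to 3′ on the strand of the gene. Capitals mark matches, on either strand, to a CRE (TGACGTCA), an AP-1 site (TGANTCA), an E-box (CACGTG), a GC box (GGGCGG) or a TATA box (TATAAA). The motifs do not overlap one another in their letters, but neighbouring GC boxes may run together.
Utp14b: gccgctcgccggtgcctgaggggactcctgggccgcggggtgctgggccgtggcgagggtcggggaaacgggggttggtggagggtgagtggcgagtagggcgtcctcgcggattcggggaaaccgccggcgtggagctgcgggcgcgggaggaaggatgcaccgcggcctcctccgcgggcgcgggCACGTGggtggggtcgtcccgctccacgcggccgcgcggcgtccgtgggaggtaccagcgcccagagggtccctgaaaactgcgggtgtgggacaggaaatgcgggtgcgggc
Acsl3: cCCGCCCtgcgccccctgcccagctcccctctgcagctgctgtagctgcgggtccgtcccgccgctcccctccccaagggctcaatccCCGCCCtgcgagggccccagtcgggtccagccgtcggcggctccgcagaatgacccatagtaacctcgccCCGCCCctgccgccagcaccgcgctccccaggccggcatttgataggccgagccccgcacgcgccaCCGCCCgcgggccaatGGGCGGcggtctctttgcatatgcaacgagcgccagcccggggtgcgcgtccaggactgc
Resp18: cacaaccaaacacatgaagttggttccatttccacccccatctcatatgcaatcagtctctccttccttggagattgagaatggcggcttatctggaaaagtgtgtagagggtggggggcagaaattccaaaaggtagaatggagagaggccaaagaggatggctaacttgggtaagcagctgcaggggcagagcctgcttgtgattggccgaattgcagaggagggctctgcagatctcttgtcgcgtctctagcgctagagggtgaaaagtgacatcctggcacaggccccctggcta
Fzd5: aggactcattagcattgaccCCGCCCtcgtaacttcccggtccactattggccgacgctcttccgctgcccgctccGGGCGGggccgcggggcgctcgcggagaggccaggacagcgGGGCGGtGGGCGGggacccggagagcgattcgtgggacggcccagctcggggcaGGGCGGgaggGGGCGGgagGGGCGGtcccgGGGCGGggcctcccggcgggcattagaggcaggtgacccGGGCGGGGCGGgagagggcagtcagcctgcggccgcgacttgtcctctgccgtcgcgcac

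The Utp14b window holds 40 CpG dinucleotides and 1 E-box, a motif present in 7.17% of the 32544 promoter windows of the table. The Acsl3 window, which lies upstream of it on the same strand, holds 33 CpG and 5 GC boxes, and a GC box occurs in 35.9% of all windows. Fzd5 has 38 CpG and 10 GC boxes, while Resp18 has 5 CpG, against a median of 7 over all windows, and no match to the motifs searched. Among the windows not printed, Aox4 has 13 CpG with an AP-1 site, an E-box and a TATA box, letters found in 7.79%, 7.17% and 13.6% of windows, and Fzd7, Cdk5r2 and Serpine2 hold 7, 2 and 6 GC boxes. No window of the 8 holds a CRE, which 1.80% of windows do. A match in letters is a description and not a bound site.

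Utp14b, a component of the small-subunit processome that assembles the ribosome and is known for its need in sperm formation, had groups that separated at 1 h and at 3 h, as those of Asic4 did without the 2 discordant libraries. At 0 h its level ran from 5.27 through a median of 6.38 to 9.69 CPM for WT and from 6.97 through 10.05 to 11.97 CPM for mutants. At 1 h WT libraries ran from 6.53 through 9.34 to 9.85 CPM and mutant libraries from 10.7 through 14.2 to 15.9 CPM. At 3 h they ran from 5.28 through 5.95 to 6.51 CPM for WT and from 8.70 through 9.42 to 10.4 CPM for mutants. The groups overlapped at 0 h, where WT 0 h male 1 was the highest of its group, and did not overlap at 1 h or 3 h. As a log2 fold change, mutants exceeded WT by 0.51 (SE 0.16) at 0 h, 0.63 (SE 0.11) at 1 h and 0.69 (SE 0.08) at 3 h, and 0.61 (SE 0.07) over all 36 libraries. Across times, 12 of 18 mutant libraries were above every WT library, and 18 of 18 were above the WT median. Without the 2 discordant libraries the value over all times was 0.63 (SE 0.08).

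Acsl3, which activates long-chain fatty acids at the endoplasmic reticulum and on lipid droplets, differed little between genotypes although its annotated start is that of Utp14b. Its level ran from 155 to 217 CPM for WT and from 171 to 221 CPM for mutants, with medians of 185 and 193 CPM, so that the libraries of the 2 genotypes covered nearly the same range. Over all libraries the log2 fold change came to 0.05 (SE 0.03), and at the 3 times it lay between 0.03 and 0.07. Reads of the 244 shared bases would enter or leave both genes.

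Asic4 encodes a subunit of the acid-sensing ion channel family that does not form a proton-gated channel on its own. Its difference over all libraries was the largest in size of the 10 genes. At 0 h it ran from 3.49 through 4.25 to 7.12 CPM for WT and from 5.44 through 9.21 to 16.1 CPM for mutants. At 1 h it ran from 2.41 through 4.02 to 16.8 CPM for WT and from 12.2 through 13.9 to 17.3 CPM for mutants, and at 3 h from 2.82 through 4.78 to 6.44 CPM for WT and from 3.74 through 10.99 to 16.4 CPM for mutants. The highest WT value at 1 h and the lowest mutant value at 3 h belong to the 2 discordant libraries. Without them the highest WT value at 1 h was 4.77 CPM and the lowest mutant value at 3 h was 7.98 CPM, and the groups did not overlap at either time. On the log2 scale the difference was 0.95 (SE 0.16) at 0 h, 1.32 (SE 0.43) at 1 h and 1.2 (SE 0.30) at 3 h. Without the 2 libraries it was 1.96 (SE 0.16) at 1 h and 1.37 (SE 0.24) at 3 h. Over all times it was 1.17 (SE 0.21) with 36 libraries and 1.46 (SE 0.14) with 34. Of 17 mutant libraries kept, 15 were then above every WT library, and the other 2 were mutant 0 h male 1 and mutant 0 h male 3. With all 36 libraries, 1 of 18 was.

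Resp18, a protein of the secretory granules of neuroendocrine cells, was higher in mutants at each time with some overlap between groups. WT libraries ran from 19.2 through 21.7 to 33.1 CPM at 0 h, from 13.1 through 19.6 to 30.8 CPM at 1 h and from 18.1 through 21.2 to 27.5 CPM at 3 h. Mutant libraries ran from 27.6 through 34.3 to 39.4 CPM, from 21.4 through 32.0 to 35.9 CPM and from 23.2 through 30.0 to 34.8 CPM. The highest WT library at 1 h was again the discordant one, and 18 of 18 mutant libraries were above the WT median. Resp18 thus had log2 fold changes of 0.48 (SE 0.14), 0.57 (SE 0.19) and 0.42 (SE 0.12) at 0, 1 and 3 h and 0.49 (SE 0.10) over all libraries. Without the discordant libraries it was 0.77 at 1 h and 0.52 (SE 0.09) over all times.

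**Figure D1:**
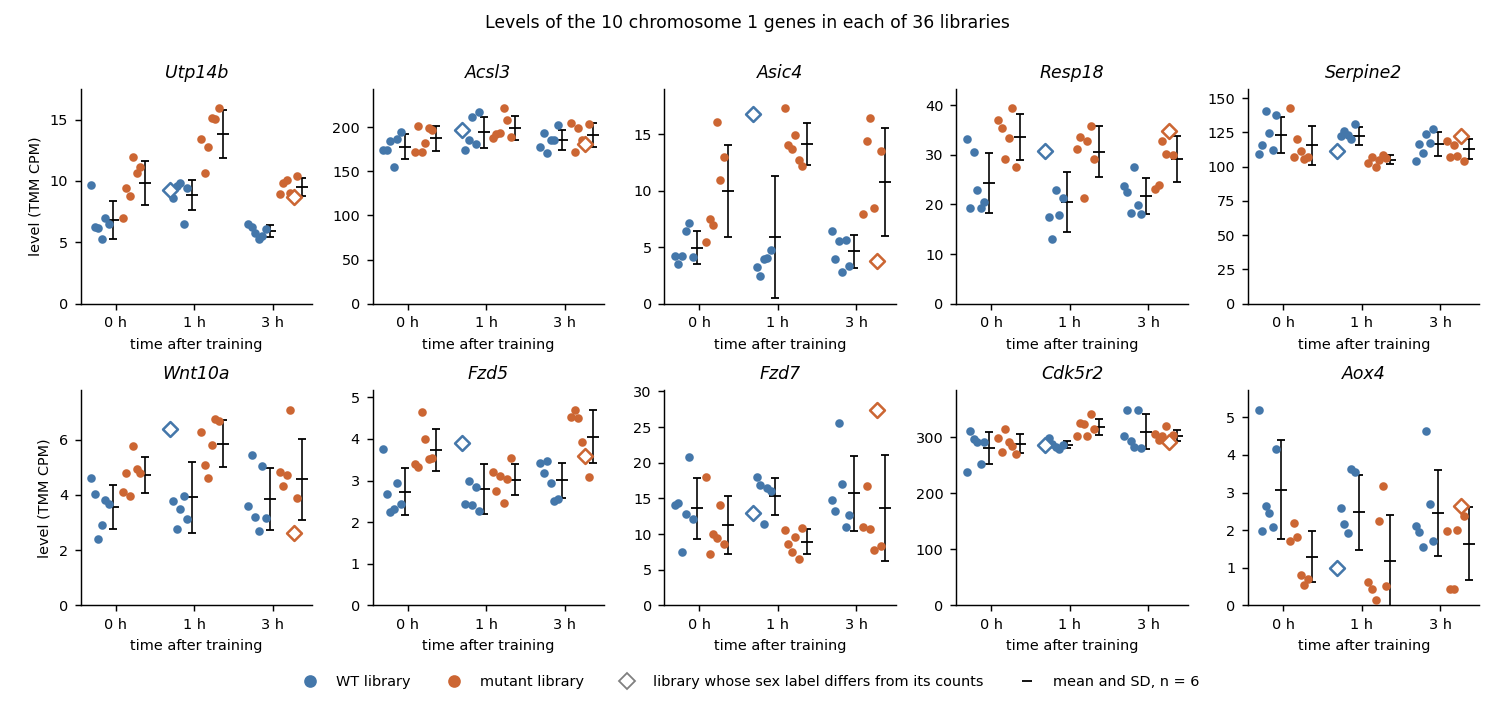
Level of each of the 10 genes (vertical axis, TMM CPM on a linear scale from 0) in each of 36 libraries, by time after training (0, 1 and 3 h) and genotype, with blue for WT, orange for mutant, open diamonds for the 2 libraries whose sex label differs from their counts, and bars for the mean and SD of 6 libraries. Utp14b, Asic4 and Resp18 sit higher in mutants and Aox4 sits lower, while Acsl3 overlaps between the genotypes at each time and Cdk5r2 at 0 h and 3 h but not at 1 h.

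The Wnt ligand gene Wnt10a was higher in mutants, with low levels throughout. At 0 h it ran from 2.39 through 3.73 to 4.61 CPM for WT and from 3.97 through 4.79 to 5.77 CPM for mutants. At 1 h the values were 2.75, 3.63 and 6.38 CPM for WT and 4.62, 6.03 and 6.73 CPM for mutants. At 3 h they were 2.68, 3.40 and 5.46 CPM for WT and 2.61, 4.51 and 7.07 CPM for mutants. The highest WT value at 1 h and the lowest mutant value at 3 h are the discordant libraries once more, and without them the groups did not overlap at 1 h. These are log2 fold changes of 0.40 (SE 0.16), 0.58 (SE 0.18) and 0.25 (SE 0.23) at 0, 1 and 3 h, and 0.41 (SE 0.12) over all times. Without the 2 libraries it was 0.79 (SE 0.12) at 1 h, 0.37 (SE 0.21) at 3 h and 0.51 (SE 0.10) over all times.

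The 2 Frizzled receptor genes of the same stretch had values of opposite sign. Fzd5, a Frizzled receptor best known for Wnt/beta-catenin signals in eye and gut, ran from 2.23 through 2.56 to 3.76 CPM for WT and from 3.33 through 3.53 to 4.64 CPM for mutants at 0 h. At 1 h it ran from 2.27 through 2.64 to 3.90 CPM and from 2.47 through 3.07 to 3.55 CPM, and at 3 h from 2.502 through 3.06 to 3.47 CPM and from 3.09 through 4.21 to 4.70 CPM. The groups overlapped at each time, most widely at 1 h. For Fzd5 the log2 fold change was 0.45 (SE 0.15) at 0 h, 0.12 (SE 0.14) at 1 h and 0.43 (SE 0.10) at 3 h, and 0.33 (SE 0.07) over all times. The highest WT value at 1 h is the discordant library, and without the 2 libraries the value was 0.22 (SE 0.13) at 1 h and 0.37 (SE 0.07) over all times.

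Fzd7, a Frizzled receptor of stem and progenitor cells, was lower in mutants. WT libraries ran from 7.49 through 13.5 to 20.8 CPM at 0 h, from 11.4 through 16.3 to 17.95 CPM at 1 h and from 10.996 through 14.03 to 25.5 CPM at 3 h. Mutant libraries ran from 7.24 through 9.72 to 18.03 CPM, from 6.48 through 9.11 to 10.9 CPM and from 7.80 through 10.9 to 27.4 CPM. The groups did not overlap at 1 h, and the highest mutant value at 3 h was the discordant library. Its log2 fold changes were −0.27 (SE 0.27), −0.77 (SE 0.14) and −0.19 (SE 0.34) at 0, 1 and 3 h. With 34 libraries it was −0.82 (SE 0.15) at 1 h and −0.59 (SE 0.20) at 3 h. Over all times it was −0.42 (SE 0.15) with 36 libraries and −0.56 (SE 0.14) with 34.

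Markers of the choroid plexus, the secretory tissue next to the hippocampus, moved with Fzd7. All 6 markers (Ttr, Kl, Folr1, Clic6, Aqp1 and Kcne2) were measured, none was at 0 in all libraries, and their summed level ran from 42.9 to 7963 CPM over the 36 libraries. The median sum was 1643 CPM for WT and 192 CPM for mutants. By group, it ran from 45.9 to 5769 CPM for WT and from 64.9 to 2609 CPM for mutants at 0 h, from 103 to 4524 CPM and from 58.2 to 1114 CPM at 1 h, and from 42.9 to 7963 CPM and from 52.3 to 3617 CPM at 3 h. Pearson's r between the log2 levels of Fzd7 and this sum was taken on deviations from the means of genotype, time and labelled sex. It was 0.82 over 36 libraries and 0.80 over 34. Among 18 WT libraries it was 0.87 and among 18 mutant libraries 0.86. Without the discordant libraries it was 0.87 and 0.75 among the 17 of each genotype. An r at least as large in size was found for 1.06% of tested genes. The libraries share the dissection and the RNA preparation. The part of choroid plexus RNA in the Fzd7 difference was not tested.

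Each marker list was set against each of the 10 genes on the same deviations, from the means of genotype, time and labelled sex. Over 36 libraries, 6 of 120 correlations of a gene with the summed level of a marker list were 0.5 or more in size. Besides Fzd7 with the choroid plexus these were Fzd7 with thalamus markers (0.67) and with astrocyte markers (−0.52), Acsl3 with astrocyte markers (0.64), and CA1 pyramidal cell markers with Fzd5 (−0.57) and with Cdk5r2 (0.52). The astrocyte sum ran from 4983 to 6316 CPM with medians of 5697 in WT and 5928 in mutants, the CA1 sum from 574 to 1001 CPM with medians of 762 and 735, and the thalamus sum from 34.7 to 122 CPM with medians of 46.9 and 45.7. Between genotypes over 36 libraries edgeR called 3 of the 63 marker genes tested, against 1.18% of all genes, namely the dentate granule cell markers C1ql2 and Tdo2 and the astrocyte marker Gja1. Lists with no called gene also held genes with an unadjusted edgeR p under 0.05, as 15.05% of all genes tested did. Among them were 6 of 6 choroid plexus markers, with a median log2 fold change of −1.83, 3 of 4 thalamus markers, with a median of 0.31, 3 of 5 striatum markers, with a median of 0.21, 3 of 7 interneuron markers, with a median of 0.04, 2 of 5 each of the CA3 and neocortex markers, with medians of −0.02 and 0.03, and 1 of 4 CA1 markers, with a median of −0.10, against a median of 0.00044 over all genes tested. The part of cell composition in the results was not tested.

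Cdk5r2 encodes p39, a neuronal activator of the kinase Cdk5, and had the highest level of the 10 genes per kilobase of exon. Its level ran from 239 through 292 to 312 CPM for WT and from 269.5 through 288 to 315 CPM for mutants at 0 h, so the genotypes overlapped almost fully. At 1 h it ran from 279 through 287 to 299 CPM for WT and from 302 through 320.0 to 341 CPM for mutants, with no overlap. At 3 h it ran from 282 through 298 to 349 CPM and from 291 through 303 to 320 CPM. Between genotypes it differed by 0.04 (SE 0.06), 0.15 (SE 0.04) and −0.03 (SE 0.06) on the log2 scale at the 3 times. Cdk5r2 was the only one of the 10 genes whose sign differed between times, and over all times its value was 0.05 (SE 0.03).

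Serpine2 encodes protease nexin-1, a secreted inhibitor of thrombin and of plasminogen activators made by glia. WT libraries ran from 109.5 through 120.1 to 141 CPM at 0 h, from 111 through 123 to 131 CPM at 1 h and from 104 through 117 to 127 CPM at 3 h. Mutant libraries ran from 106 through 109 to 143 CPM, from 99.5 through 106 to 109 CPM and from 104 through 112 to 122 CPM. The groups did not overlap at 1 h, where the log2 fold change was −0.22 (SE 0.04). It was −0.10 (SE 0.08) at 0 h, −0.05 (SE 0.05) at 3 h and −0.12 (SE 0.04) over all times, and −0.14 (SE 0.04) without the 2 discordant libraries. The highest mutant value at 0 h belongs to mutant 0 h male 1.

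Aox4, an aldehyde oxidase known mainly from skin and the Harderian gland, was near the lower end of detection, with a lowest count of 10 reads in mutant 1 h male 3. It ran from 1.97 through 2.54 to 5.20 CPM for WT and from 0.55 through 1.26 to 2.18 CPM for mutants at 0 h. At 1 h the values were 1.00, 2.37 and 3.62 CPM for WT and 0.15, 0.56 and 3.18 CPM for mutants, and at 3 h 1.56, 2.04 and 4.64 CPM for WT and 0.43, 1.99 and 2.63 CPM for mutants. The groups overlapped at each time, at 3 h with close medians, and the lowest WT value at 1 h belongs to the discordant library. Mutant libraries varied 21.3-fold from lowest to highest and WT libraries 5.19-fold. Aox4 had log2 fold changes of −1.41 (SE 0.31), −1.38 (SE 0.51) and −0.66 (SE 0.37) at 0, 1 and 3 h, and −0.99 (SE 0.29) over all times. Leaving out the 2 discordant libraries gave −1.45 at 1 h, −0.74 at 3 h and −1.08 (SE 0.30) over all times. Of 18 mutant libraries, 9 were below every WT library.

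Over all 36 libraries 7 of the 10 genes were higher and 3 lower in mutants, and 9 had the same sign at each of the 3 times. The median size of the log2 fold change was 0.41 for the 10 genes and 0.05 over the 18186 genes tested, and the genes were selected for such differences. In the 36-library edgeR fit 4 of the 10 (Fzd5, Resp18, Asic4 and Utp14b) had an adjusted p under 0.05, against 1.18% of all genes. Without the 2 discordant libraries 8 did, with Aox4, Fzd7, Wnt10a and Serpine2 added, against 2.58% of all genes. DESeq2 called 6 of the 10 with all 36 libraries, against 2.96% of all genes (538 of 18180). As these are the contrasts that chose the genes, nothing is read from the counts. Acsl3 and Cdk5r2 differed by no more than 0.06 on the log2 scale over all times, with or without the 2 libraries.

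**Figure D2:**
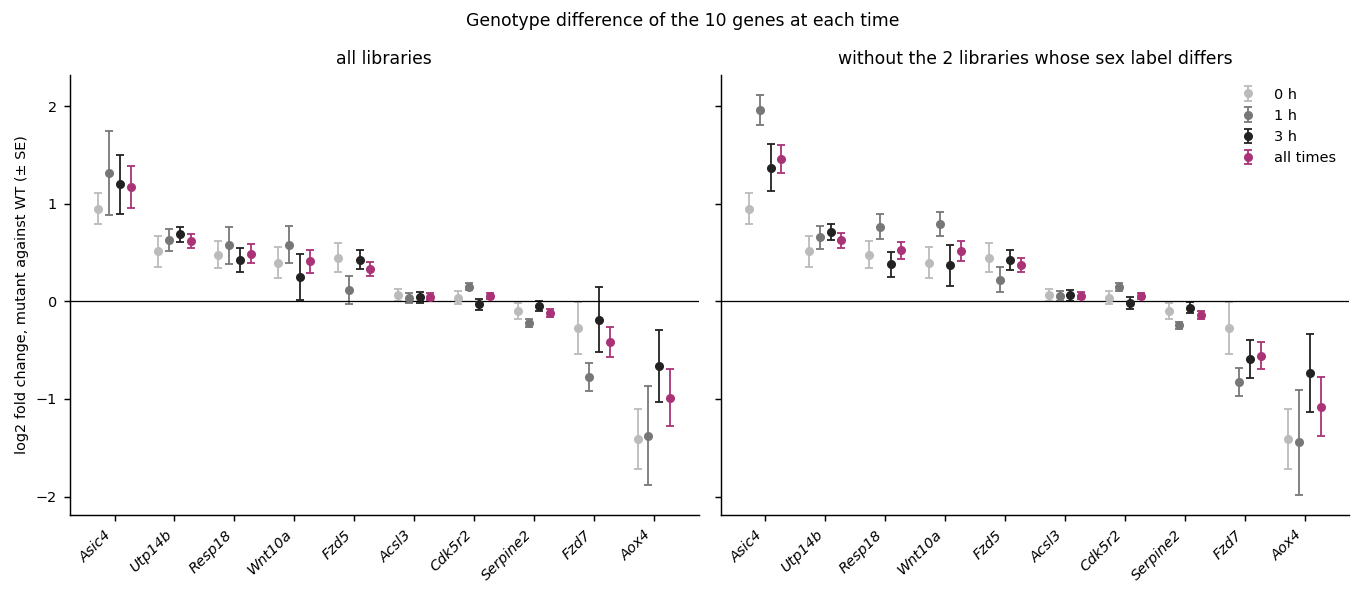
Log2 fold change of mutant against WT (vertical axis, with bars of 1 SE) for each of the 10 genes at 0, 1 and 3 h and over all times, with all libraries on the left and without the 2 libraries whose sex label differs on the right. Asic4 at 1 h moves from 1.32 to 1.96 between the panels. The genes are set in the same fixed order in both, from Asic4 on the left to Aox4 on the right.

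Groups that do not overlap, with all 6 libraries of 1 genotype above all 6 of the other, were counted at each time. At 0 h none of the 10 genes separated, against 0.264% of genes tested. At 1 h 4 did (Fzd7, Cdk5r2, Utp14b and Serpine2), against 0.577%, and at 3 h Utp14b alone did, against 0.357%. With the discordant libraries left out 6 separated at 1 h, with Wnt10a and Asic4 added, against 1.37% of genes. Asic4 and Utp14b then separated at 3 h, against 0.913%. With RLE factors in place of TMM, the counts with all libraries were the same. These shares belong to the contrast that chose the genes as well.

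Among all tested genes of the window, 6 of 154 (3.90%, exact 95% binomial interval 1.44 to 8.29) had an adjusted p under 0.05 between genotypes over 36 libraries, 4 of them members of the set of 10. With the 10 genes left out it was 2 of 144 (1.39%, 0.169 to 4.93), and on other chromosomes 171 of 16478 (1.04%, 0.889 to 1.2). Within 25 Mb of Kdm5b it was 11 of 233 (4.72%, 2.38 to 8.29), and on the rest of chromosome 1 it was 25 of 656 (3.81%, 2.48 to 5.57). The intervals cover counting error only and treat neighbouring genes as independent. The median size of the difference was 0.07 on the log2 scale in the window and 0.05 on other chromosomes. As the 10 genes were chosen on this contrast, their share of the calls is given without a reading. Without the 2 discordant libraries the shares were 8.39% in the window, 3.45% with the 10 genes left out, 8.94% near Kdm5b, 7.14% on the rest of chromosome 1 and 2.34% elsewhere.

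**Figure D3:**
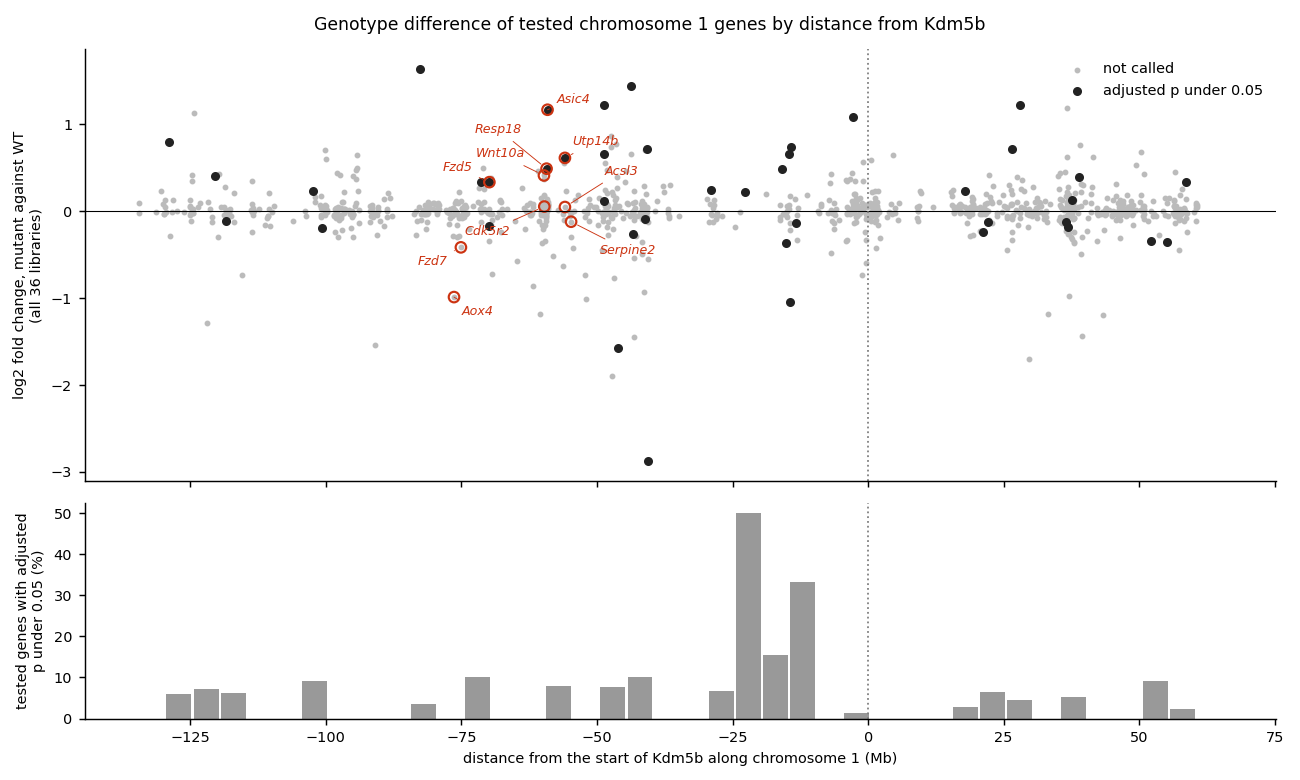
Upper panel, log2 fold change of mutant against WT over 36 libraries (vertical axis) of each tested gene of chromosome 1 by its distance in Mb from the start of Kdm5b (horizontal axis), with black for adjusted p under 0.05, grey for other genes, red circles for the 10 genes and a dotted line at Kdm5b. Lower panel, share of tested genes with adjusted p under 0.05 in bins of 5 Mb (%), where bins with few genes can reach high shares, as the bin with 1 of 2 genes called does.

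The genes next to the 10 were read from the same fit. The nearest tested genes on either side are 16 genes outside the set, none of which had an edgeR adjusted p under 0.05, against 1.18% of all genes. Of these, 4 had an unadjusted p under 0.05, against 15.05% of all genes, DESeq2 called 1 (Bzw1), against 2.96%, and their median size of difference was 0.09 on the log2 scale. Asic4, at 1.17, lies between Gmppa at 0.14 (SE 0.05) and Chpf at 0.02 (SE 0.03). Resp18, at 0.49, lies between Ptprn, a receptor-like phosphatase of secretory granules, at 0.05 (SE 0.03) and Dnpep at 0.08 (SE 0.03). Fzd5, at 0.33, lies between Ccnyl1 at 0.03 (SE 0.05) and Plekhm3 at −0.03 (SE 0.03). Aox4, at −0.99, lies between its tandem relative Aox3 at 0.03 (SE 0.17) and Bzw1 at 0.10 (SE 0.03). Larger neighbouring values came from genes of low level. Mogat1, at 0.172 CPM in WT, had 0.56 (SE 0.25), Wnt6, next to Wnt10a and at 0.295 CPM in WT, had 0.37 (SE 0.29), and Fam124b, at 0.106 CPM in WT, had −0.42 (SE 0.44). For 7 of the 10 genes both neighbours had a smaller difference in size. As the 10 genes were selected with these differences known and their neighbours were not, nothing is read from this count.

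Responses to training were tested within each genotype by edgeR's quasi-likelihood test with Benjamini-Hochberg adjustment over all genes of the fit. Utp14b was the 1 gene of the 10 that passed. In mutants it rose from 9.83 ± 1.82 CPM (mean ± SD, n = 6) at 0 h to 13.8 ± 1.95 CPM at 1 h. This rise of 0.50 on the log2 scale (SE 0.08) had an edgeR adjusted p of 0.0185, and 6 of 6 libraries exceeded the mean of 0 h and 5 of 6 every library of 0 h. The share of genes called in this comparison was 0.312%, 54 of 17282, of which 52 were higher at 1 h. In WT Utp14b went from 6.82 ± 1.52 to 8.88 ± 1.22 CPM, which is 0.38 on the log2 scale (SE 0.14, edgeR adjusted p 0.922), and 5 of 6 libraries exceeded the mean of 0 h. The difference between these responses, mutant minus WT, was 0.11 (SE 0.17) on the log2 scale. It is built from the contrast that chose the genes, so it was not tested, and the call in mutants alone does not show that the genotypes responded differently. At 3 h Utp14b was back near its level at 0 h in mutants, at −0.03 (SE 0.11, edgeR adjusted p 0.962), and was −0.21 (SE 0.12, edgeR adjusted p 0.720) from it in WT.

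The call for Utp14b in mutants at 1 h rests on libraries that also entered the selection, since a gene chosen for a high level in mutants at 1 h carries that level into its response, and it depended on the fit. With sex left out of the model its edgeR adjusted p was 0.110, and it rose above 0.05 in fits without mutant 0 h male 3, without mutant 0 h female 3, without mutant 1 h male 3 and without mutant 1 h female 3, where it reached at most 0.0536. The log2 fold change stayed between 0.44 and 0.53 over the 12 fits that left out 1 library.

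The other genes did not pass in any response. In mutants at 1 h, 6 of the 10 had an unadjusted edgeR p under 0.05. Besides Utp14b these were Asic4 at 0.58 (SE 0.21, adjusted p 0.314), Wnt10a at 0.31 (SE 0.10, adjusted p 0.248), Cdk5r2 at 0.14 (SE 0.05, adjusted p 0.244), Fzd5 at −0.31 (SE 0.12, adjusted p 0.360) and Serpine2 at −0.14 (SE 0.06, adjusted p 0.446), all from edgeR. Over all genes 1913 of 17282 had an unadjusted p under 0.05 there. In WT at 1 h no gene of the 10 passed, against 0% of genes called (0 of 17319, with 928 at an unadjusted p under 0.05, 1 of them, Utp14b, among the 10, and 8 genes called by DESeq2). At 3 h no gene of the 10 passed in WT, against 0% (0 of 17438, with 1436 at an unadjusted edgeR p under 0.05 and 74 called by DESeq2), or in mutants, against 0% (0 of 17285, with 1481 at an unadjusted edgeR p under 0.05 and 145 called by DESeq2). None of the 10 had an unadjusted edgeR p under 0.05 at 3 h in either genotype. DESeq2 called 370 genes in mutants at 1 h (2.14%), 1 of them among the 10, and called 0 of the 10 in the other 3 responses, against 0.0462% and 0.425% of genes in WT at 1 h and 3 h and 0.84% in mutants at 3 h. Among the values that passed no test, several turned sign without the discordant libraries. Without WT 1 h male 1, Asic4 in WT at 1 h was at −0.48 (SE 0.15, edgeR adjusted p 0.60) from 0 h instead of 0.21 (SE 0.47, edgeR adjusted p 0.972), and 5 of 5 libraries lay below the mean of 0 h. Wnt10a in WT at 1 h went from 0.12 (SE 0.20, edgeR adjusted p 0.960) to −0.06 (SE 0.18, edgeR adjusted p 0.976). Without mutant 3 h female 2, Fzd7 in mutants at 3 h went from 0.28 (SE 0.35, edgeR adjusted p 0.882) to −0.10 (SE 0.25, edgeR adjusted p 0.920), and Wnt10a went from −0.04 (SE 0.19) to 0.10 (SE 0.14).

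**Figure D4:**
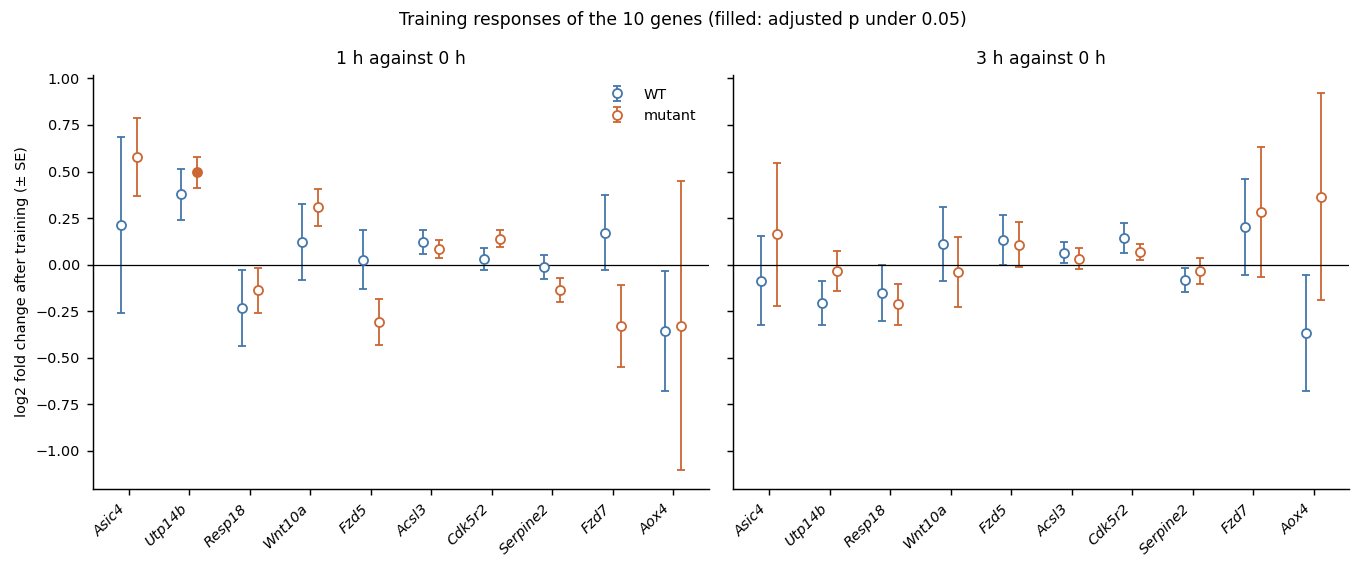
Log2 fold change after training (vertical axis, with bars of 1 SE) of the 10 genes in WT (blue) and mutants (orange), at 1 h on the left and 3 h on the right, each against 0 h of the same genotype, with filled points for an edgeR adjusted p under 0.05. Utp14b in mutants at 1 h, at 0.50, is the filled point, and Aox4 has the widest bars.

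Sex was tested over all 36 libraries as labelled, and none of the 10 genes passed, against 0.0825% of genes tested (15 of 18186 by edgeR, with 923 at an unadjusted p under 0.05, and 13 or 0.0715% by DESeq2, none of them among the 10). Without the 2 libraries whose label differs none of the 10 passed either, against 0.082% by edgeR. With all libraries Fzd5 had the smallest adjusted p, with a mean of 3.00 CPM in libraries labelled female and 3.46 CPM in those labelled male and a difference of −0.20 on the log2 scale (SE 0.07, edgeR adjusted p 0.938). Aox4 had the largest value in size, 0.54 (SE 0.30, edgeR adjusted p 0.977), from 1.72 CPM in libraries labelled male to 2.32 CPM in those labelled female. Without the 2 libraries Fzd5 was at −0.17 (SE 0.07) and Acsl3 at 0.08 (SE 0.03), both with an edgeR adjusted p of 0.574, Aox4 was at 0.44 (SE 0.31, edgeR adjusted p 0.814), and Asic4 turned from −0.08 (SE 0.22, edgeR adjusted p 0.992) to 0.21 (SE 0.14, edgeR adjusted p 0.80).

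Within groups, where genotype, time and labelled sex are constant, the 10 genes varied together only weakly. Each of the 45 pairs was given Pearson's r over the 36 libraries, on deviations of log2 CPM from the means of genotype, time and labelled sex. The sex label differs from the counts in the 2 discordant libraries. For the median and the count of positive pairs the sign was turned where the 2 genes differ in opposite directions between genotypes. The median was 0.14, with 33 pairs positive. With 34 libraries the median was 0.03, with 25 positive. For single pairs r is given as it is, with no sign turned. The pair Asic4 and Wnt10a went from 0.50 to 0.01, and Asic4 and Resp18 from 0.41 to 0.12. Against Kdm5b itself, r of Asic4 went from −0.66 with 36 libraries to −0.25 with 34. Pairs of Asic4 with Fzd7 (−0.38 to −0.05) and with Fzd5 (0.24 to −0.09) and the pair Fzd7 and Wnt10a (−0.35 to −0.04) also moved, and Resp18 and Aox4 went from 0.13 to 0.36. Some pairs moved less. Utp14b and Acsl3, which share a locus and exon bases, were at 0.42 with 36 and 0.41 with 34 libraries. Asic4 and Serpine2 were at −0.51 and −0.42, Utp14b and Serpine2 at −0.43 and −0.42, and Cdk5r2 and Utp14b at −0.44 and −0.47. An r at least as large in size with Utp14b as that of Acsl3 was found for 4.82% of tested genes, and for 3.05% with Asic4 as that of Serpine2. The points share libraries, dissection and depth, and these correlations are descriptions.

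**Figure D5:**
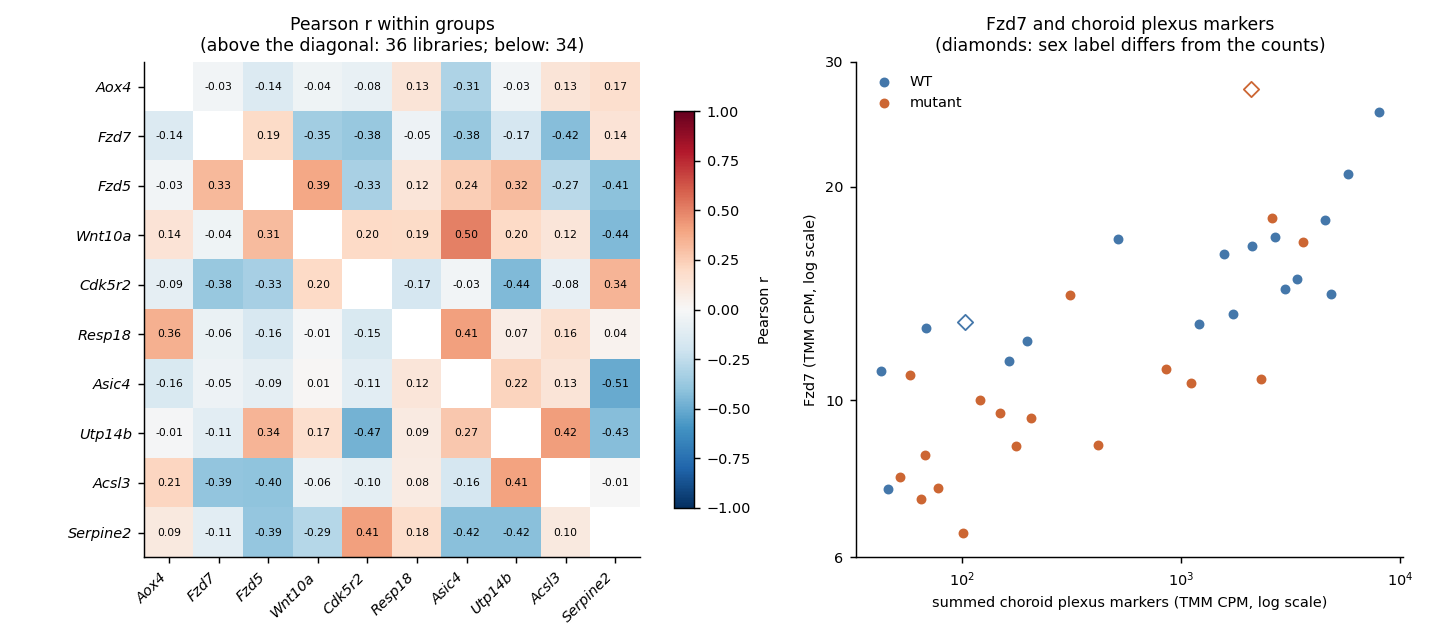
Left, Pearson's r within groups of the same genotype, time and labelled sex for each pair of the 10 genes, with no sign turned (colour scale from −1 to 1), with 36 libraries above the diagonal and 34 below it. Right, Fzd7 (vertical axis, TMM CPM) against the summed level of 6 choroid plexus markers (horizontal axis, TMM CPM), both on log scales, in 18 WT (blue) and 18 mutant (orange) libraries, with diamonds for the 2 libraries whose sex label differs. Asic4 and Wnt10a drop from 0.50 to 0.01 without those libraries, and Fzd7 is higher where the choroid plexus sum is higher in both genotypes.

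A mean of z-scores over the 10 genes, each turned so that mutant-high is positive, gives 1 value for a library. By construction it separates the genotypes on which the genes were chosen, so only its exceptions are described. WT libraries ran from −0.926 to 0.565 and mutant libraries from −0.534 to 1.00. The highest WT library was WT 1 h male 1 and the lowest mutant library was mutant 3 h female 2. Without these 2 libraries, WT ended at 0.0194 and the lowest mutant library was mutant 0 h male 1 at −0.421, which had 6.97 CPM of Utp14b, 5.44 CPM of Asic4, 18.03 CPM of Fzd7 and 143 CPM of Serpine2, each the most WT-like value of its group. Mutants at 1 h were the tightest group, from 0.748 to 1.00.

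The genes outside the set with the highest r to this score over 36 libraries were Wdr95 on chromosome 5 (0.86), Eya1 on chromosome 1 (0.85), Stat4 on chromosome 1 (0.85), Stat6 on chromosome 10 (0.81) and Mypn on chromosome 10 (0.81). With 34 libraries their r was 0.86, 0.85, 0.84, 0.81 and 0.82. Wdr95 was at 0.814 CPM for WT and 2.00 CPM for mutants, a log2 fold change of 1.31 (SE 0.16). Stat4, a transcription factor of cytokine signals, was at 0.275 and 0.832 CPM, a log2 fold change of 1.64 (SE 0.33), and its start lies 82.6 Mb from that of Kdm5b. Eya1, a transcriptional cofactor and phosphatase, was at 22.03 and 29.1 CPM, and Stat6 at 10.47 and 14.8 CPM. As the score is built from genotype differences, genes with a genotype difference rank high in it. Of the 5 genes, 3 lie on other chromosomes, and Eya1 and Stat4 lie on chromosome 1, which holds 1043 of the 18186 genes tested.

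Relatives of the 10 genes were read from 11 lists of 137 genes, of which 127 are not members of the set. Of these, 119 were tested in the 36-library fit. Some start in the same window of chromosome 1 as the 10 genes, such as Aox1, Aox3, Wnt6, Ptprn and Scg2. None of the genes tested passed in the genotype fit, in the 4 training responses or in the sex test, by edgeR, with 119 tested in each but the WT responses, where 118 were. At an unadjusted edgeR p under 0.05 there were 17 between genotypes (14.3%, against 15.05% of all genes tested), 4 and 8 in WT at 1 h and 3 h (3.39% and 6.78%, against 5.36% and 8.23%), 13 and 12 in mutants at 1 h and 3 h (10.9% and 10.1%, against 11.1% and 8.57%), and 13 between the sexes (10.9%, against 5.08%). DESeq2 called Fzd4, Acsl5 and Pam between genotypes, Xdh at 3 h in WT and in mutants, and Vgf at 1 h in mutants, and called 0 in WT at 1 h and between the sexes, against the DESeq2 shares over all genes given above. Among Wnt ligands, 18 of 19 were tested. Wnt10b, the closest relative of Wnt10a, was at −0.18 (SE 0.23) between genotypes. Wnt3a was at 1.08 (SE 0.44) from a level of 0.0737 CPM in WT, and Wnt7b, at 52.5 CPM in WT, was at −0.16 (SE 0.05). Wnt16, at 0.847 CPM in WT, was at 0.45 (SE 0.16). Among Frizzled receptors and co-receptors, 17 of 17 were tested. Fzd4 was at −0.38 (SE 0.12), close to Fzd7 at −0.42, while Fzd8, the closest relative of Fzd5, was at −0.03 (SE 0.06), and Fzd1 and Fzd2, the closest of Fzd7, were at 0.12 (SE 0.08) and 0.0026 (SE 0.10). The 17 genes of Wnt/beta-catenin signal transduction had a median of 0.01 and the 18 tested targets and feedback genes a median of 0.06, with Axin2, a target widely used as a readout of the pathway, at −0.01 (SE 0.05). That list ran from −1.48 (SE 0.50) for Sfrp5 and −0.64 (SE 0.24) for Sfrp1, which encode secreted Wnt antagonists, to 0.28 (SE 0.23) for Dkk2, and these genes and Wnt16 were named after their values were seen. The median over all genes tested was 0.00044.

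The relatives of the other genes are given in the same way, as log2 fold changes of mutant against WT over 36 libraries. Utp14a, the X-linked gene from which Utp14b was copied, was at 0.07 (SE 0.04), and the 15 other small-subunit processome genes had a median of 0.03. Asic1 and Asic2, the main acid-sensing channel genes of the brain, were at −0.03 (SE 0.04) and −0.07 (SE 0.03). Aox1, which starts in the same window of chromosome 1 as Aox4, was at −0.28 (SE 0.10). Acsl5 was at −0.13 (SE 0.04) and Acsl1 and Acsl6 were at −0.03 and 0.03. Cdk5r1, which encodes the activator p35, was at 0.02 (SE 0.02), and the kinase gene Cdk5 was at −0.02 (SE 0.03). Serpini1, the neuronal serpin gene, was at −0.03 (SE 0.05), and Plat, whose product Serpine2 inhibits, was at 0.06 (SE 0.04). The median of the 12 other dense-core vesicle genes was 0.0014. None of these differences was compared with that of the member by a test.

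Set on a scale of CPM per kilobase of exon, which allows levels of different genes to be compared, the WT order (mean ± SD over 18 libraries) was Cdk5r2 at 104 ± 9.48, Acsl3 at 42.7 ± 3.48, Resp18 at 21.5 ± 5.12, Serpine2 at 14.6 ± 1.18, Fzd7 at 3.28 ± 0.890, Asic4 at 1.89 ± 1.17, Wnt10a at 1.53 ± 0.42, Utp14b at 0.938 ± 0.219, Fzd5 at 0.412 ± 0.0749 and Aox4 at 0.317 ± 0.134. The ranges of Resp18 and Serpine2, of Fzd7 and Asic4, of Asic4 and Wnt10a, of Wnt10a and Utp14b and of Fzd5 and Aox4 overlapped, so these neighbours in the order are not separated by their spread. Without WT 1 h male 1, Asic4 in WT was at 1.64 ± 0.492. In mutants Asic4, at 4.26 ± 1.47, stood above Fzd7, at 2.49 ± 1.12, with overlapping ranges, and Resp18, at 30.2 ± 4.75, was clear of Serpine2, at 13.4 ± 1.21. Exon lengths are those of the annotation used here, which may differ from that of the counting.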

How the data were processed

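RNA was sequenced from dorsal hippocampus of 36 mice in 6 groups of 6. The authors aligned reads to mm10 with STAR (2.7.8a) and counted them per gene with featureCounts (2.0.1), per the submitters' processing notes, and deposited raw counts per Entrez gene ID. The annotation, strand setting and treatment of multimapping reads are not given in the sources used here. Symbols and GRCm38 positions came from the reference tables, where 25275 of 27179 IDs matched, and the unmatched 1904 hold 1.284% of counts. No 2 libraries of a group, in 90 pairs, agreed within sampling noise.

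Counts were fitted in edgeR (4.0.16; limma 3.58.1, R 4.3.3) with filterByExpr (minimum count 10), TMM factors, sex as labelled as a covariate and the robust quasi-likelihood F-test, with adjusted p under 0.05 as the threshold. Each response to training used 12 libraries, and the sex test and the genotype value over all times used all 36. The precision is set by totals of 40274435 to 107000233 counts a library and by 6 mice a group. Log2 CPM used a prior count of 2. Summaries were made in Python (3.11.15) with pandas (2.3.3), numpy (2.4.6) and scipy (1.17.1), and the fits were tested on simulated counts. The 10 genes, the pathway and marker lists and the tests were chosen with earlier results of these data known. Genes named besides the 10 are Kdm5b, the nearest tested gene on either side of each, genes that overlap them, the 5 genes with the highest r to the mean z-score, and list members. Some list members were called or belong to the family of 1 of the 10. Others, such as Axin2, Cdk5, Plat and the choroid plexus markers, are neither. Sfrp5, Sfrp1, Dkk2 and Wnt16 were named after their values were seen. Alternatives were DESeq2 (1.42.0), RLE factors, other filters, no sex covariate, sex read from the counts, a replicate block, each library left out, the 2 discordant libraries left out, all libraries in 1 fit, other windows and another prior count. A further 8 samples of a first cohort were not analysed here.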

Additional observations from a re-analysis of the deposited data

Results flagged for a closer look

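In each of 6 groups the 10 genes and Kdm5b were examined for a library far from the other 5 of its group, in 66 tests by Dixon's criterion. Chance alone gives about 1 in 20 such cases, and 4 of 66 were found, all of them in WT. In WT at 1 h the library labelled WT 1 h male 1, whose sex label differs from its counts, stood high for both Asic4, at 16.8 CPM with the next library at 4.77 CPM, and Wnt10a, at 6.38 CPM with the next at 3.97 CPM. In the same group WT 1 h female 2 stood low for Utp14b, at 6.53 CPM with the next library at 8.61 CPM. In WT at 3 h, WT 3 h female 1 stood high for Aox4, at 4.64 CPM with the next library at 2.697 CPM.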

How the results depend on the processing

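No value for the 10 genes that was past a threshold changed its sign under any alternative tried. Among the other values, 3 of 40 genotype values (Cdk5r2 at 0 h and 3 h and Acsl3 at 1 h, at most 0.04 in size), 13 of 40 training responses (at most 0.33) and 5 of 10 sex values (at most 0.08) changed sign under at least 1 alternative. Without the 2 discordant libraries 8 of the 10 genes were called between genotypes instead of 4, with 472 genes called in all instead of 214, 3 genes called in WT at 1 h and 1 in mutants at 3 h instead of 0, 8.39% of genes called in the window, and 2 of the 10 genes separated at 3 h. The window share and the counts of separated genes without these libraries were added after seeing the data. DESeq2 called 538 genes between genotypes, 8 and 74 in WT at 1 h and 3 h, and 370 and 145 in mutants. With at least 10 counts in every library, 9 genes in place of 15 differed by sex. The cause of these changes was not tested.

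With 1 library left out, genes called between genotypes ran from 142 (without mutant 0 h male 3) to 354 (without mutant 0 h male 1), with 332 without WT 1 h male 1. In WT at 1 h they ran from 0 to 3 (without WT 1 h male 1; 1 without WT 0 h female 1) and at 3 h from 0 to 8 (without WT 0 h female 2). In mutants at 1 h they ran from 26 (without mutant 0 h male 3) to 86 (without mutant 0 h female 2), with 28 without mutant 0 h female 3, 29 without mutant 1 h female 3 and 30 without mutant 1 h male 2 or male 3, and at 3 h from 0 to 10 (without mutant 0 h female 2), with 1 without mutant 3 h female 2. Members called in mutants at 1 h ran from 0 to 1, and were 0 without the sex covariate, where Utp14b had an edgeR adjusted p of 0.110. Over the settings other than a left-out library this p ran from 8.23e-06 to 0.110.

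Replicate numbers are shared between groups but did not pair the libraries. Deviations of libraries with the same sex and number correlated at −0.188 to 0.230, with at most 4 of 6 pairs above 0.1. With a replicate block, 5 of the 10 genes and 230 genes in all were called between genotypes, and in mutants at 1 h 37 genes and 0 of the 10, with Utp14b at an edgeR adjusted p of 0.0688.

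Of the alternatives for single genes and pairs that kept all libraries or dropped the discordant ones, 801 moved a genotype value by less than the SD between libraries within groups or r by less than its approximate standard error, or left a training response or sex value on its side of the threshold. Another 12, all of them without the 2 discordant libraries, moved the value further, for Asic4 at 1 h and for r of 11 pairs. By the narrower measure of 1 SE, leaving out these libraries moved 52 of the log2 fold changes by less and 8 by at least that much, those between genotypes of Asic4, Wnt10a and Resp18 at 1 h, of Fzd7 at 3 h and of Asic4 over all times, the responses of Asic4 in WT at 1 h and of Fzd7 in mutants at 3 h, and the sex value of Asic4. Of the alternatives, 2 took Utp14b out of the called genes in mutants at 1 h. With 1 library left out, 1555 did not move the value past these limits, 1 moved it (Asic4 without WT 1 h male 1, to 1.96) and 4 took Utp14b out of the called genes. Depth limits the genes of low count, such as Aox4 with a lowest count of 10, and whole-gene counts cannot separate reads of Utp14b and Acsl3 in their shared bases, of antisense partners, or of the 2 parental strains.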
